A study of Mus musculus with 4 samples.

Results

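Nkx1-1, Nkx1-2, Nkx3-2, Nkx6-1, Nkx6-2 and Nkx6-3 were examined for H3K27me3 in erythro-myeloid progenitors (EMPs) of the mouse yolk sac at E10.5. These NK homeobox genes were chosen by symbol, and they made up 6 of the 21951 protein-coding genes of the annotation. All peaks lying in these genes or within 20 kb of them were taken, which gave 41 of 10223 peaks with 500 EMPs and 20 of 15282 peaks with 15000 EMPs. To find candidate targets of Ezh2 in EMPs, the study had profiled the mark by CUT&RUN, in which an antibody directs a nuclease to chromatin and the released fragments are sequenced. There was 1 H3K27me3 library and 1 IgG isotype control library for each cell number. All cells were C57BL/6 and labelled as wild type beside the allele notation Ezh2fl/fl; Tie2-Cre+/+, and they were read as wild type here. EMPs were sorted as LIN-SCA1-KIT+CD16/32+CD41+ cells. The sort left a pool, so a mark on some of the cells and a mark on all of them cannot be told apart.

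H3K27me3 is placed on histone H3 by Ezh2, the catalytic subunit of Polycomb repressive complex 2, and it is typically found over silent developmental regulators with CpG-rich promoters. The NK homeobox genes encode DNA-binding proteins that pattern the embryo outside of the blood. Nkx6-1 and Nkx6-2 act in progenitors of the ventral neural tube and in the pancreas, Nkx1-2 in the caudal neural plate, Nkx3-2 in the sclerotome and cartilage, Nkx6-3 in the stomach and hindbrain and Nkx1-1 in the developing central nervous system.

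The start regions of Nkx1-2, where the libraries differed, and Nkx6-2, where they did not, are shown because GENCODE and RefSeq place these starts at the same base. The 250 bases before each start are given 5′ to 3′ on the minus strand of mm10 from RefSeq, with every CG in capitals. Those of Nkx1-2 (chr7:132599638-132599887) held 19 CpG sites, and a 500-EMP peak reached only their first 27 bases, whereas a 15000-EMP peak covered all 250. Those of Nkx6-2 (chr7:139582798-139583047) held 26 CpG sites and lay inside a peak in both libraries.
Nkx1-2: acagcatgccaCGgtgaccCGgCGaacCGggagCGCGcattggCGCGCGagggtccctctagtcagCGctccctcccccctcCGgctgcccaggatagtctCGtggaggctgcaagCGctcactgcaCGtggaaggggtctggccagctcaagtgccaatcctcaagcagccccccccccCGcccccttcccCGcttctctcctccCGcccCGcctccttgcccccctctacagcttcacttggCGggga
Nkx6-2: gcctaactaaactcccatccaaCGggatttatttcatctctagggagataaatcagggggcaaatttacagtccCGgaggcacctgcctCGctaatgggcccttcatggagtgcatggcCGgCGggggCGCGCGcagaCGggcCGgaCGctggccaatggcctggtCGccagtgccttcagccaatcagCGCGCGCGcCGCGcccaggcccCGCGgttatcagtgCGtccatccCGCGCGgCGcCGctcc

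All 6 genes had a peak within 3 kb in both libraries. The distance was that of the authors' annotation, from a peak to the nearer end of the gene. By the same rule a peak was present at 9.72% of protein-coding genes with 500 EMPs and at 16.7% with 15000 EMPs. Counted from the transcription start site (TSS), the limit that the study states, 6 of 6 genes also had a peak in both libraries. For 6 of 6 genes the 95% Wilson interval ran from 60.97% to 100% and covers counting error only. The TSS itself told the libraries apart. It lay inside a 500-EMP peak at 1 of 6 genes, Nkx6-2, against 1.4% of all protein-coding genes. It lay inside a 15000-EMP peak at 5 of 6 genes, all but Nkx6-3, against 8.62% of all genes. No replicate was available, so no test between the cell numbers could be made and no value below has a spread.

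Several technical features moved with the cell number. The 500-EMP library had 17 cycles of PCR and the 15000-EMP library 16, and they were read as 76 bp and 59 bp pairs on different instruments, with peaks called at p thresholds of 0.01 and 0.05 in this order. These features and the cell number cannot be told apart. The study also states a lower depth and a much lower alignment rate for 500 EMPs, and the peak lists carry no read counts. Over the whole genome, peaks covered 5.946 Mb with 500 EMPs and 23.96 Mb with 15000 EMPs, with median widths of 363 bp and 770 bp.

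**Figure D1:**
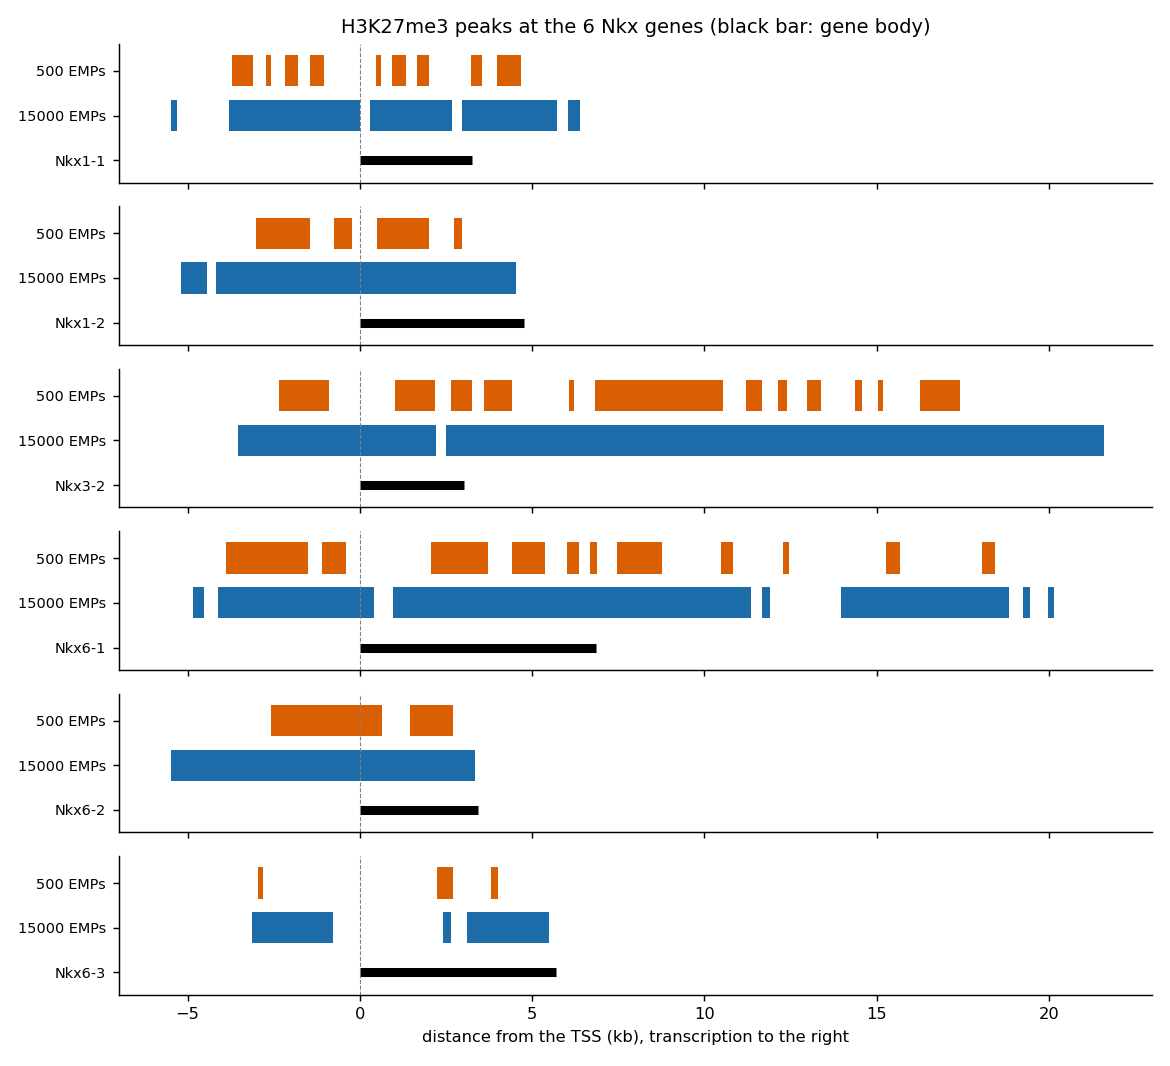
Peaks of each library at the 6 Nkx genes, drawn by distance from the TSS in kb with transcription to the right. Orange bars are 500-EMP peaks, blue bars are 15000-EMP peaks and black bars are gene bodies. The orange bars are mostly pieces of longer blue bars, and the start is free of orange in every gene but Nkx6-2.

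Nkx6-2, which acts in ventral neural progenitors and later in myelinating glia, had the most cover within 3 kb of its TSS with 500 EMPs. With 15000 EMPs Nkx1-2 tied with it, and within 5 kb of the TSS another gene led in each library. Nkx6-2 lies at chr7:139579376-139582797 on the minus strand. With 500 EMPs a 3203 bp peak ran from 2566 bp upstream to 636 bp downstream of the TSS, and only 1.223% of peaks in that library were as wide. A second 500-EMP peak of 1259 bp lay inside the gene. With 15000 EMPs both fell within a single peak of 8816 bp (chr7:139579470-139588285), which covered 97.25% of the gene body. Within 3 kb of the TSS, a window of 6001 bp, cover was 4462 bp with 500 EMPs and 6001 bp with 15000 EMPs. Only 0.1959% of protein-coding genes had as much cover with 500 EMPs.

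Nkx6-1, required for motor neuron progenitors and for beta cells of the pancreas, carried a block of peaks that ran far past the gene. It lies at chr5:101658139-101664996 on the minus strand. With 500 EMPs 11 peaks were spread from 3871 bp upstream to 18418 bp downstream of the TSS, and with 15000 EMPs 7 peaks ran from 4855 bp upstream to 20134 bp downstream. The widest 15000-EMP peak measured 10379 bp (chr5:101653642-101664020) and held 6 of the 500-EMP peaks. Cover of the gene body was 45.84% with 500 EMPs and 91.81% with 15000 EMPs. At the start the libraries differed. A stretch of 2476 bp around the TSS had no 500-EMP peak, while a 15000-EMP peak of 4528 bp crossed the TSS and ended 413 bp inside the gene.

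Nkx6-1 also had the only 500-EMP peak at these genes with no 15000-EMP counterpart. It measured 172 bp, lay 12280 bp to 12451 bp downstream of the TSS (chr5:101652545-101652716), held 0 CpG sites and was soft-masked as repeat over 100% of its length. Its sequence on the plus strand, from the RefSeq genome, is shown because it was the exception. It is printed in lower case throughout, since there is no CG to mark.
Nkx6-1 downstream peak: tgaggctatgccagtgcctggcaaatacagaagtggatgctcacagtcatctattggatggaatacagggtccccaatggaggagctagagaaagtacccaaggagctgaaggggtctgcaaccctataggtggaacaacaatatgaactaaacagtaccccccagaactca

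Nkx6-3, a regulator of gastric endocrine cells, had the least cover of the 6 genes. It lies at chr8:23153269-23158948 on the plus strand. With 500 EMPs it had 3 peaks of 151 bp, 463 bp and 206 bp, and with 15000 EMPs 3 peaks of 2345 bp, 243 bp and 2393 bp. All were matched between the libraries, yet none reached the TSS. The nearest 500-EMP peak lay 2243 bp from the TSS and the nearest 15000-EMP peak 788 bp. The intronic peak of 463 bp was the only matched 500-EMP peak that extended past its 15000-EMP counterpart, here of 243 bp. Within 3 kb of the TSS cover was 614 bp and 2456 bp, values that 5.717% and 9.362% of all genes reached.

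Nkx3-2, a regulator of sclerotome and cartilage, had the widest single peak. It lies at chr5:41761483-41764501 on the minus strand. The 15000-EMP peak downstream of and into the gene measured 19085 bp (chr5:41742902-41761986), and 0.1505% of peaks in the library were as wide. It held 10 of the 12 peaks seen with 500 EMPs, of which the widest measured 3701 bp and the narrowest 137 bp. The remaining 2 lay within a 15000-EMP peak of 5733 bp (chr5:41762300-41768032) that crossed the TSS. The 500-EMP peaks left 1938 bp around the TSS free. Peaks covered 10489 bp of the gene and its flanks of 20 kb with 500 EMPs and 24818 bp with 15000 EMPs, the most of the 6 genes in both libraries.

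Nkx1-2, which marks progenitors of the caudal neural plate, lies at chr7:132594878-132599637 on the minus strand. With 500 EMPs 4 peaks of 234 bp to 1581 bp flanked the TSS and left 730 bp around it free. With 15000 EMPs a peak of 8697 bp (chr7:132595116-132603812) held all 4, and a second peak of 777 bp lay upstream. Cover within 3 kb of the TSS was 3833 bp with 500 EMPs and 6001 bp with 15000 EMPs. The antisense gene Gm16764 overlaps Nkx1-2, and peaks carry no strand.

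Nkx1-1, the paralog of Nkx1-2, was marked by short pieces with 500 EMPs. It lies at chr5:33430734-33433976 on the minus strand. With 500 EMPs its 9 peaks measured 143 bp to 696 bp. With 15000 EMPs it had 5 peaks of 188 bp to 3815 bp. The 15000-EMP peak at the start ended only 15 bp inside the gene, so its call at the TSS rests on the position of that edge. By RefSeq the start lies 114 bp further upstream and is inside the same peak. Cover within 3 kb of the TSS was 1870 bp with 500 EMPs and 5440 bp with 15000 EMPs.

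**Figure D2:**
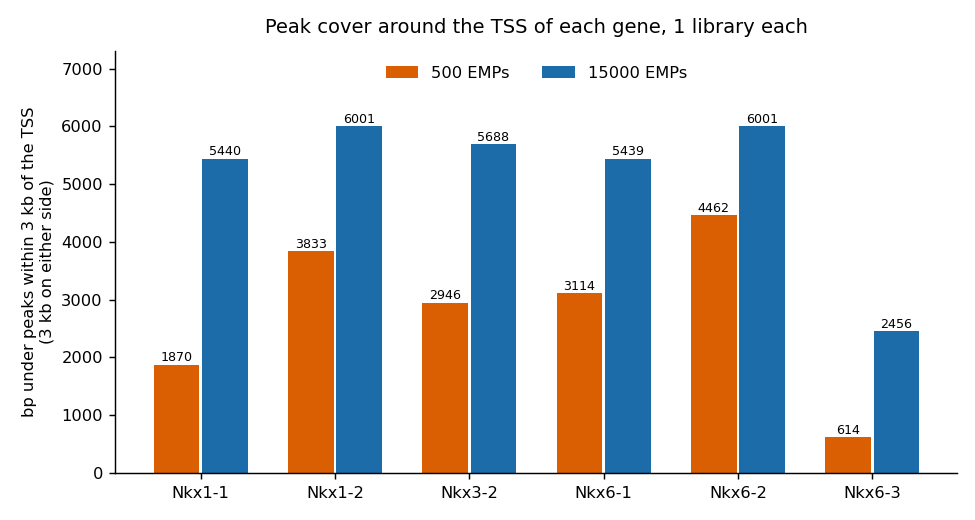
Length under peaks, in bp, within 3 kb of the TSS of each gene with 500 EMPs (orange) and 15000 EMPs (blue), from 1 library each and so without error bars. Cover was lower with 500 EMPs at each gene, and Nkx6-3 had the least in both libraries with 614 bp and 2456 bp.

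Within 3 kb of the TSS Nkx6-2 and Nkx1-2 had the most cover in both libraries and Nkx6-3 the least. With 500 EMPs the order from most to least was Nkx6-2, Nkx1-2, Nkx6-1, Nkx3-2, Nkx1-1 and Nkx6-3. With 15000 EMPs Nkx1-2 and Nkx6-2 were covered over the whole 6001 bp, and Nkx1-1 and Nkx6-1 were 1 bp apart at 5440 bp and 5439 bp. The order depended on the window. Within 5 kb of the TSS Nkx6-1 led with 500 EMPs at 5291 bp, followed by Nkx6-2 (4462 bp), Nkx3-2 (4003 bp), Nkx1-2 (3856 bp), Nkx1-1 (3499 bp) and Nkx6-3 (820 bp). With 15000 EMPs Nkx1-2 led within 5 kb at 9273 bp, Nkx6-1 came next at 8887 bp, and Nkx6-2 had 8328 bp. Without replicates it cannot be told which neighbours in these orders differ beyond the spread between libraries. The ratio of cover with 15000 EMPs to cover with 500 EMPs was smallest for Nkx6-2 at 1.345 and largest for Nkx6-3 at 4, and the window caps it for Nkx1-2 and Nkx6-2. The median over the 6 genes was 3030 bp with 500 EMPs, beside 789 bp over the 2177 genes that had any cover. With 15000 EMPs it was 5564 bp, beside 2743 bp over 3728 genes with cover.

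**Figure D3:**
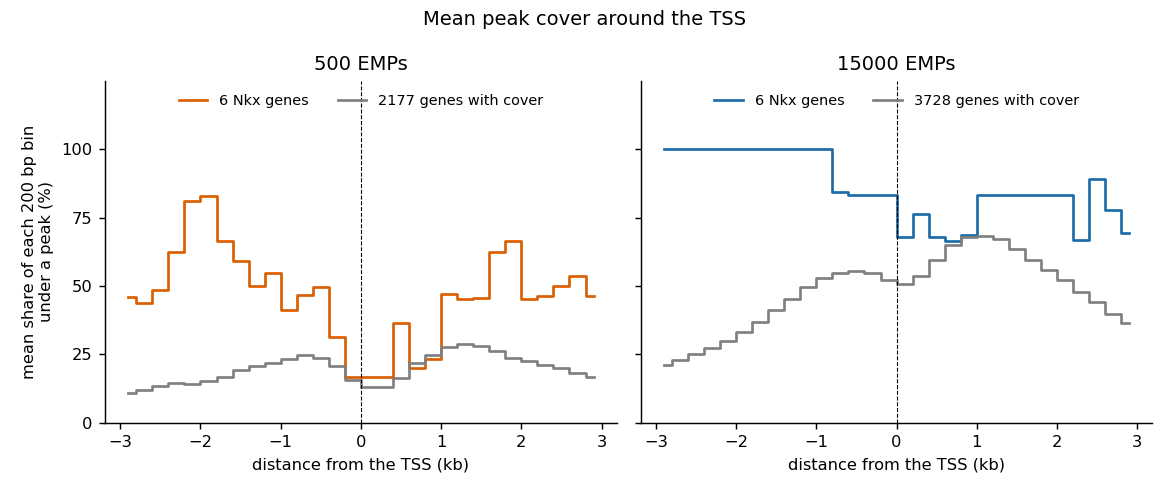
Mean share of each 200 bp bin under a peak, in percent, by distance from the TSS in kb, for the 6 Nkx genes (coloured) and for all genes with any cover in the window (grey; 2177 genes with 500 EMPs and 3728 with 15000 EMPs). In the 500-EMP library the mean of the Nkx genes fell to 16.67% in the bins beside the TSS and stood at 82.83% in the bin centred 1900 bp upstream.

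Mean cover of the Nkx genes was lower around the start than upstream of it in both libraries. With 15000 EMPs the bins centred 2900 bp to 900 bp upstream were fully covered at all 6 genes, and the lowest bin, centred 700 bp downstream, stood at 66.67%. The lower values rested on few genes: in the bins centred 500 bp to 100 bp upstream Nkx6-3 alone was without cover and the other 5 were fully covered, and in the lowest bin Nkx6-3 and Nkx6-1 were without cover. With 500 EMPs cover was 16.67% in the bin centred 100 bp downstream, which is Nkx6-2 alone. Over all genes with cover the values in that bin were 13.09% with 500 EMPs and 50.88% with 15000 EMPs. With 15000 EMPs the all-gene mean was lower still far upstream, at 21.24% in the first bin, and it stood at 65.12% in the bin where the Nkx genes were lowest.

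The peak-free stretch at the start was richer in CpG sites than the peaks beside it. Gaps of at most 3 kb that held the TSS were present at 4 of the 6 genes with 500 EMPs. Such a gap was present at 746 of the 21951 protein-coding genes, while 2177 had any cover within 3 kb of the TSS. For Nkx1-1 the gap held 10.14 CpG sites per 100 bp, beside 6.13 in the 2 peaks flanking it. For Nkx6-1 the values were 8.966 in the gap and 3.109 in the flanking peaks. For Nkx1-2 they were 6.027 and 3.038, and for Nkx3-2 5.882 and 2.657. The gap was the denser side at each of the 4. The same held for 91.29% of the 746 protein-coding genes with such a gap in that library, whose medians were 6.826 in the gap and 2.306 in the flanking peaks. GC content moved along with it, with 68.84% in the Nkx1-1 gap and 57.17% in its flanking peaks, and the part of base composition in the calls was not tested.

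**Figure D4:**
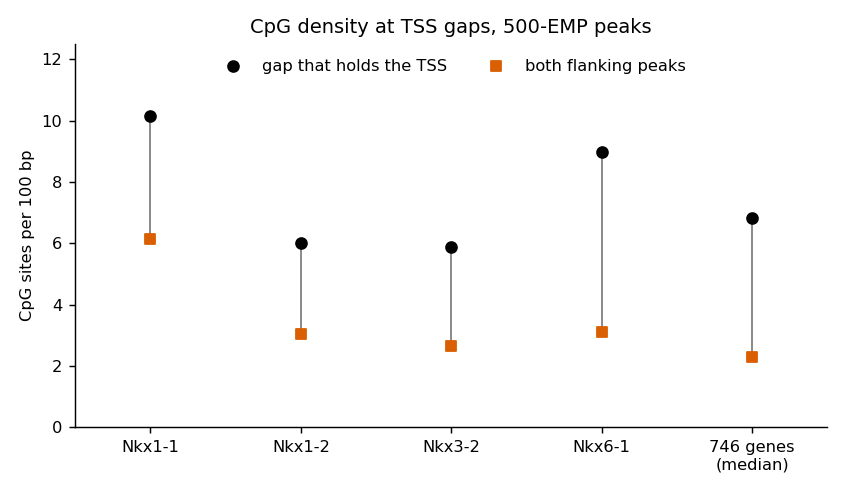
CpG sites per 100 bp in the gap between 500-EMP peaks that holds the TSS (black circles) and in the pair of peaks flanking it (orange squares), for the 4 Nkx genes with such a gap and as the median of 746 genes. The circle is above the square at each gene, with the gap of Nkx1-1 highest at 10.14.

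Gaps remained with 15000 EMPs, of which 5 lay inside the genes. Nkx1-1 had gaps of 268 bp and 293 bp in the gene, with CpG observed-over-expected ratios of 0.9773 and 1.028. Nkx6-1 had one of 562 bp in the gene at 0.8699, and Nkx3-2 one of 313 bp at 0.9026. A gap of 446 bp at Nkx6-3 had a ratio of 0.1994. Over all 8567 gaps of at most 3 kb in that library, inside genes or not, the median ratio was 0.262, and over the 13 gaps at the Nkx genes it was 0.3096.

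The promoters, taken as 250 bases before to 50 after the RefSeq start, were matched for 5 of the 6 genes. Each held more CpG sites than the median of 7 over all 32817 promoters, with 40 at Nkx6-1, 37 at Nkx1-1, 32 at Nkx6-2, 25 at Nkx3-2 and 21 at Nkx1-2. The 15000-EMP peaks covered all 300 bases of each of the 5. With 500 EMPs 300 bases were covered at Nkx6-2, 27 at Nkx1-2 and 0 at Nkx1-1, Nkx3-2 and Nkx6-1. Searched on both strands, the letters TATAAA were in 0 of the 5 promoters and in 13.62% of all promoters. CCAAT was in those of Nkx1-2 and Nkx6-2 (37.39% of all) and GGGCGG in those of Nkx1-2, Nkx3-2 and Nkx6-2 (35.63% of all). AAGTG, the core bound by NK2 proteins, was in those of Nkx1-2 and Nkx3-2 (46.4% of all), and TTAAT in 0 of 5 (27.09% of all). None of these motifs contains another, and a match is a description of letters only.

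Set side by side, the 500-EMP peaks at the Nkx genes were nearly all contained in the 15000-EMP set. Of 41 peaks, 40 (97.56%, Wilson interval 87.4% to 99.57%) shared at least 1 bp with a 15000-EMP peak. Over all 500-EMP peaks the share was 91.24%, inside this interval. In the other direction 13 of 20 peaks overlapped (65%, 43.29% to 81.88%), beside 32.16% of all 15000-EMP peaks. The share depended on the rule: it was 10% when 50% of the 15000-EMP peak had to be shared, and 88.89% and 100% when peaks within 1 kb and 3 kb were joined. The share of 500-EMP peaks came to 4.878% when 50% of both peaks had to be shared. Peaks at 1 gene are neighbours and not independent, so the intervals are too narrow. In bp, peaks covered 31941 of 266982 bp around the genes with 500 EMPs and 78334 bp with 15000 EMPs, a ratio of 2.452, and 98.77% of the 500-EMP length was shared. Over the genome the ratio was 4.029, and 93.03% of the 500-EMP length was shared. With 15000 EMPs 5 of the 20 peaks were wider than 5 kb, as were 875 of 15282 in all. With 500 EMPs 0 of the 41 were, and 30 of 10223 in all.

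Joining peaks less than 3 kb apart showed how far each marked block reached. With 15000 EMPs the blocks spanned 25131 bp at Nkx3-2, 24990 bp at Nkx6-1, 11869 bp at Nkx1-1, 9723 bp at Nkx1-2 and 8816 bp at Nkx6-2. At Nkx6-3 the block in the gene spanned 3082 bp and the upstream peak stood apart. The corresponding blocks with 500 EMPs spanned 19755 bp, 22290 bp, 8386 bp, 5978 bp, 5277 bp and 1767 bp in the same gene order. Upstream edges with 15000 EMPs lay between 3531 bp (Nkx3-2) and 5490 bp (Nkx1-1) from the TSS at the 5 genes with a marked start. Downstream edges varied more, from 3327 bp at Nkx6-2 to 21599 bp at Nkx3-2.

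Of the 8 protein-coding genes within 20 kb, 5 had no peak in either library. Most protein-coding genes lacked one, as 9.72% had a peak within 3 kb with 500 EMPs and 16.7% with 15000 EMPs. Nkx3-2 and Nkx6-1, which had the longest blocks, had no other gene of the annotation within 20 kb. Uvssa near Nkx1-1, Oat and Lhpp near Nkx1-2, Cfap46 near Nkx6-2 and Gpat4 near Nkx6-3 had 0 bp under peaks in either library. Inpp5a, whose 3′ end overlaps that of Nkx6-2, had 0 bp with 500 EMPs and 183 bp with 15000 EMPs, at the edge of the Nkx6-2 peak. The GENCODE record of Fgfr2, a fibroblast growth factor receptor, overlaps Nkx1-2 and had 21516 bp under peaks with 500 EMPs and 53870 bp with 15000 EMPs, the peaks in Nkx1-2 included. Its start lies 523713 bp away and had 0 bp of cover within 3 kb. Ank1, which encodes the ankyrin of the red cell membrane skeleton, ends just upstream of Nkx6-3. Peaks covered 3324 bp of it with 500 EMPs and 13548 bp with 15000 EMPs, and the upstream Nkx6-3 peaks of both libraries overlapped its end. Within 3 kb of its annotated start it had 2323 bp of cover with 500 EMPs and 4983 bp with 15000 EMPs, at a distance of 178425 bp from the Nkx6-3 start. Among non-coding neighbours, the start of the lincRNA Gm43851, which lies 3488 bp upstream of the Nkx1-1 start, was inside a peak in both libraries. The start of Gm16764 at Nkx1-2 was inside a 15000-EMP peak only, and that of Gm15816 near Nkx6-3 was in none. The microRNA genes Mir486 and Mir3107 near Nkx6-3 had 0 bp under peaks in either library. The upstream Nkx6-3 peaks were also given to the antisense gene Gm15816, which lay nearer to them than Nkx6-3 did in both libraries.

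Protein-coding genes were then ranked by how closely the cover in 60 bins, 30 in each library, resembled that of each Nkx gene. The measure was the mean absolute difference in the covered fraction of a bin. Nkx6-2 was most like Hoxc9 (0.09367) and Sema5b (0.1209), and Nkx1-2 most like Zic4 (0.0975) and Nr2f2 (0.1113). Nkx6-1 was most like Camk2n1 (0.1053) and Neurog2 (0.141), and Nkx3-2 most like Vax2 (0.1446) and Foxl1 (0.1509). Nkx1-1 was most like Ppp2r2c (0.1302) and Lrrc10b (0.1609). Nkx6-3, with little cover, was most like Fgf21 (0.07542) and Kif26a (0.07683), which had 0 bp and 89 bp of cover with 500 EMPs. The likeness is one of peak outline in 2 libraries.

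Relatives and partners of the Nkx genes were compared by list, and several genes stand in more than 1 list. All 7 Nkx2 genes compared had a peak within 3 kb of the nearer gene end in both libraries. Their median cover near the TSS was 3599 bp with 500 EMPs and 5672 bp with 15000 EMPs. For the 6 genes it was 3030 bp and 5564 bp. Of 34 other NK-like homeobox genes, 31 had a peak with 500 EMPs and 33 with 15000 EMPs. Hhex, which acts in early blood and endothelial cells as well as in liver, had none in either library. Nanog and Noto had one with 15000 EMPs only.

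Genes of the tissues in which these genes act were counted in the same way, beside 9.72% of all genes with 500 EMPs and 16.7% with 15000 EMPs. All 18 ventral neural tube patterning genes, the setting of Nkx6-1 and Nkx6-2, had a peak in both libraries. Of 17 sclerotome and cartilage genes, the setting of Nkx3-2, 15 had a peak with 500 EMPs and 16 with 15000 EMPs, and Runx2 had none. Of 18 pancreatic endocrine genes 13 and 14 had a peak. Neither library had a peak at Ins1, Ins2, Gcg and Slc2a2, which encode hormones and a glucose transporter. Of 14 gastric and gut epithelial genes, the setting of Nkx6-3, 6 and 7 had a peak. With 500 EMPs the Wilson intervals were 82.41% to 100% for the ventral neural tube list, 65.66% to 96.71% for sclerotome, 49.13% to 87.5% for pancreas and 21.38% to 67.41% for stomach and gut, so neighbouring lists in this order overlapped. The lists were written by hand, and differences between them were not tested.

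Among 15 hematopoietic progenitor markers the 500-EMP library showed 0 peaks and the 15000-EMP library a peak at 1, Gata2. The Wilson intervals of these shares, 0% to 20.39% and 1.187% to 29.82%, include the shares of all genes, 9.72% and 16.7%, so the markers could not be told from other genes by these counts. Kit, Itga2b and Fcgr3, which stand for the sort markers KIT, CD41 and CD16, had none. Of 14 housekeeping genes 0 had a peak in either library, which allows a share of up to 21.53% by the Wilson interval and likewise includes the shares of all genes.

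**Figure D5:**
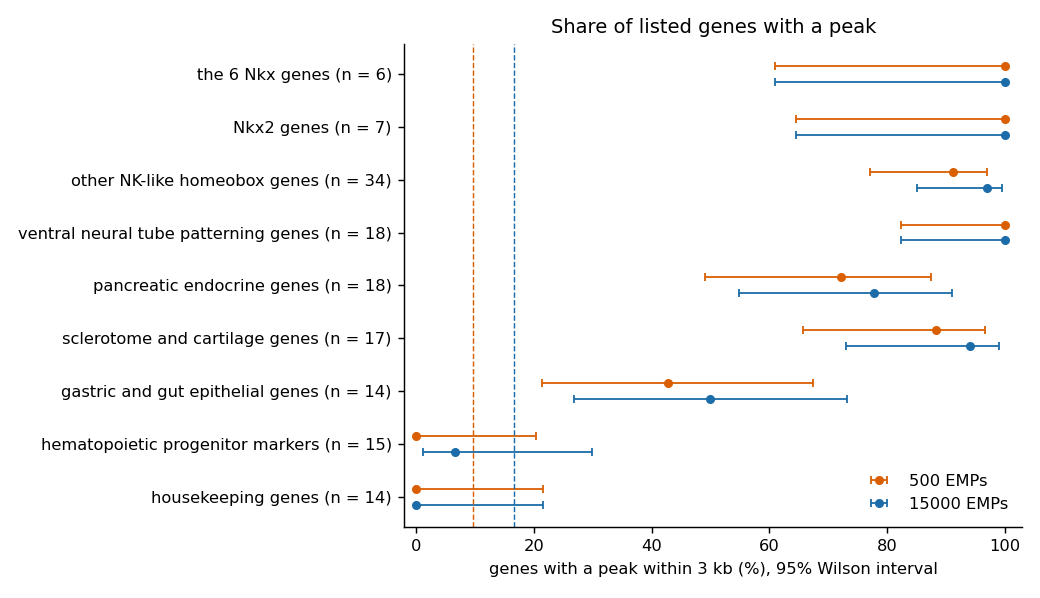
Share of the genes in each list with a peak within 3 kb of the nearer gene end, in percent, with 500 EMPs (orange) and 15000 EMPs (blue). Bars are 95% Wilson intervals for counting error, and dashed lines mark the share of all protein-coding genes, 9.72% and 16.7%. The 6 Nkx genes, the Nkx2 genes and the ventral neural tube genes stand at 100% in both libraries and the housekeeping genes at 0.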

How the data were processed

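H3K27me3 and IgG CUT&RUN libraries of 500 and 15000 EMPs were used as labelled, 1 of each. The authors aligned reads to mm10 with Bowtie2 2.2.1, used SAMtools 1.9 and called broad peaks with MACS2 2.1.2 against IgG, at p thresholds of 0.01 (500 EMPs) and 0.05 (15000 EMPs). Their command listing pairs each threshold with the other library's name, and the lists were taken as labelled. They annotated peaks with ChIPpeakAnno. The deposited files give peak positions, gene names and distances, with no score, p-value or read count, so depth is unknown from them. IgG peaks were not used here. Genes came from GENCODE vM21 and promoters and genome sequence from RefSeq on GRCm38, the assembly of mm10. Overlap (at least 1 bp), cover, gaps of 50 bp to 3 kb between peaks and Wilson intervals were computed in Python 3.11.15, and the interval functions were tested on simulated data. Joining widths, windows, short peaks and TSS choice were varied. The named genes were all 6 members, protein-coding genes within 20 kb, the 2 most alike per member, and list genes with a peak, or with none in both libraries, where these numbered 5 or fewer. Kit, Itga2b, Fcgr3, Nanog, Noto and non-coding neighbours were named outside this rule, after their values were seen. Some list genes are not reported here and were left out of the list counts. The members, lists and rules were chosen with earlier results of these data known, and the comparison of gaps with flanking peaks was added after their values were seen.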

Additional observations from a re-analysis of the deposited data

How the results depend on the processing

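Of 40 alternatives to 10 counts, lengths and shares, 26 stayed within 1.5 times the value given, or for a share within its 95% interval. With 15000 EMPs all 6 genes kept their peak within 3 kb under each of 4 alternatives. With 500 EMPs 5 did so at a limit of 1 kb or without peaks under 500 bp, counted from the nearer gene end. Joining peaks within 1 kb turned 41 and 20 peaks into 18 and 9, and joining within 3 kb into 7 and 7. Without peaks under 500 bp 18 and 13 remained. Demanding overlap of at least 50% of the query peak lowered the shared 15000-EMP peaks from 65% to 10%, and demanding 50% of both peaks gave 4.878% of 500-EMP and 10% of 15000-EMP peaks. The shared 500-EMP peaks came to 100% in windows of 5 kb, after joining within 3 kb and without peaks under 500 bp. The shared 15000-EMP peaks came to 88.89% after joining within 1 kb and to 100% within 3 kb. Starts inside a peak stayed at 1 and 5 with RefSeq starts, an alternative chosen after seeing the data and available for 5 genes. Of 48 alternatives to the cover near the TSS 28 stayed within 1.5 times. Without peaks under 500 bp Nkx1-1 and Nkx6-3 had 0 bp within 3 kb of the TSS with 500 EMPs. The Nkx1-1 peak that still counted by gene end lay downstream of the gene. No stricter peak threshold could be set, as peaks carry no score. No paired analysis was possible because each group held 1 library. The files give neither depth nor peak height, and the study states a lower depth and alignment rate for 500 EMPs, so a peak in 1 library only may not be read as a difference between EMPs.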

Other observations

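The annotation also gave 3 peaks of the 15000-EMP library to these genes from beyond 20 kb. For Nkx1-1 they measured 382 bp and 229 bp and lay 54523 bp and 78946 bp upstream, and for Nkx6-1 1 peak of 402 bp lay 114701 bp downstream. None had a counterpart among the 500-EMP peaks given to these genes, and overlap by position was not examined for these 3. Most 15000-EMP peaks lacked a counterpart, as 32.16% of all of them overlapped a 500-EMP peak.

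CpG content also set the peaks at the Nkx genes beside the rest. The median CpG observed-over-expected ratio of the 41 peaks with 500 EMPs was 0.4193, beside 0.2795 over all peaks, and that of the 20 peaks with 15000 EMPs was 0.412, beside 0.2832. Median GC content was 48.56% beside 49.11% with 500 EMPs and 48.47% beside 49.17% with 15000 EMPs. These are descriptions, and neighbouring peaks of a gene share their sequence context.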
